A study of Homo sapiens with 16 samples.

Results

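Transcripts of 10 genes that are known targets of the transcription factor p53 were followed over 45 h of HER2 kinase inhibition in MCF10HER2 cells. The genes are MDM2, SESN1, GDF15, BTG2, TP53INP1, TP53I3, RRM2B, FDXR, XPC and FAS, chosen by name among the 18190 gene symbols of the array, and each is given by its detected probe with the highest mean signal. All 10 had a probe detected on 3 or more arrays and entered the tests. MCF10HER2 (MCF-10HER-2 in the labels) descends from MCF10A, a nontransformed line of human breast epithelium, and was transduced to over express HER2 stably. HER2 is a receptor tyrosine kinase of the EGF receptor family. All cultures came from this line and grew in medium with EGF and hydrocortisone and without insulin. The HER2 kinase inhibitor CP724,714 was given at 1 µM, and parallel cultures were harvested every 3 h from 0 to 45 h. The series has 16 arrays, 1 untreated (0 h) and 15 treated (3 to 45 h), and no time point has a replicate. Cells received new medium at the start of treatment, so the inhibitor, the new medium and time in culture cannot be told apart.

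p53 is kept low in unstressed cells by MDM2, a ubiquitin ligase that marks it for destruction and is itself a p53 target. DNA damage, oncogene activity and other stress stabilize p53, which then binds a pair of short half-sites near its target genes and raises their transcription. The targets arrest the cell cycle, induce apoptosis, repair DNA, adjust metabolism or feed back on p53. Several of them also answer to other factors, such as FOXO proteins and ATF4.

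Between 10363 and 11436 of 20589 probes were detected on an array, and 12321 were tested. Background signal was 135.9 to 148.9 on the 8 arrays from 0 to 21 h and 164.5 to 173.9 on the 8 arrays from 24 to 45 h, so values within each set of 8 are given beside those over all arrays. The 9 h and 18 h arrays were dimmer, with an upper quartile intensity of 397 and 418 against 553 to 804 on the others. Over all tested probes the step from 9 to 12 h was the largest between neighbouring arrays, with a root mean square of 0.33 on the log2 scale. The epithelial markers KRT5, KRT17, KRT18 and EPCAM were detected on all 16 arrays, and 6 of 7 epithelial markers were tested. Dim probes of the epithelial markers CDH1 and TP63 were detected on 15 and 14 arrays, and KRT14 was not tested. Among markers of other cell types COL1A1, COL1A2, LUM, CDH5 and VWF were detected on 0 arrays, while dim probes of DCN, CD14 and PECAM1 were detected on 16. Dim probes of KDR, PTPRC and LYZ were detected on 15, 7 and 4 arrays. Of 6 tested epithelial markers KRT17 was higher in treated cells (2.68, limma adjusted p = 2.85e-06), and of 6 tested markers of other cell types CD14 (0.24, limma adjusted p = 0.0144) and PECAM1 (0.16, limma adjusted p = 0.0404) were higher. Of all tested probes 8.62% were higher in treated cells. DCN rose linearly by 0.26 (limma adjusted p = 0.0013). In the same linear fit 1 of the 6 epithelial markers rose and 1 fell, with changes from −0.47 to 2.90. Of all tested probes 12.9% rose and 11.5% fell in that fit. KRT5 read 14.99 at 0 h and 14.55 at 45 h on the log2 scale. The part of these markers in the results was not tested.

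SESN1 encodes sestrin 1, a stress-induced protein that restrains mTORC1 signaling. Normalized log2 signal of its probe read 9.86 at 0 h, 9.62 at 3 h, 8.38 at 6 h, 8.42 at 9 h, 9.28 at 15 h, 8.91 at 33 h and lastly 8.54 at 45 h, with a median of 8.82 over the 16 arrays. The untreated array was the highest of the 16, the 6 h array the lowest, and the later arrays stayed between them. Signal at 0 h was 2.74-fold that of the 6 h and 9 h arrays and 2.49-fold that at 45 h. The 15 treated arrays lay 1.05 below the untreated array on the log2 scale (SE 0.29, limma adjusted p = 0.0151), with 15 of 15 lower. This comparison rests on a lone untreated array, which is assumed to vary like the others. In bulk RNA, fewer cells that express a gene and less RNA per cell cannot be told apart.

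Time dependence of SESN1 passed the test of a spline in limma (adjusted p = 0.0223). A straight line from 0 to 45 h did not pass, with a change of −0.65 (SE 0.27, limma adjusted p = 0.0871). Within 0 to 21 h the line changed by −0.70 over 21 h (SE 0.35, limma adjusted p = 0.141) and within 24 to 45 h by −0.39 (SE 0.35, limma adjusted p = 0.596), in a fit that shares 1 estimate of the spread between the sets. The late call depended on the form of the fit. On the 8 late arrays alone the same slope, given over 45 h, was −0.84 and passed (limma adjusted p = 0.0155), and on the 8 early arrays alone it was −1.50 over 45 h and did not (limma adjusted p = 0.310). Most of the difference from the untreated level was present by 6 h. Without the 6 h array the linear change was −0.86 and passed (limma adjusted p = 0.0163), and without the 9 h array it was −0.80 (limma adjusted p = 0.0267).

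**Figure D1:**
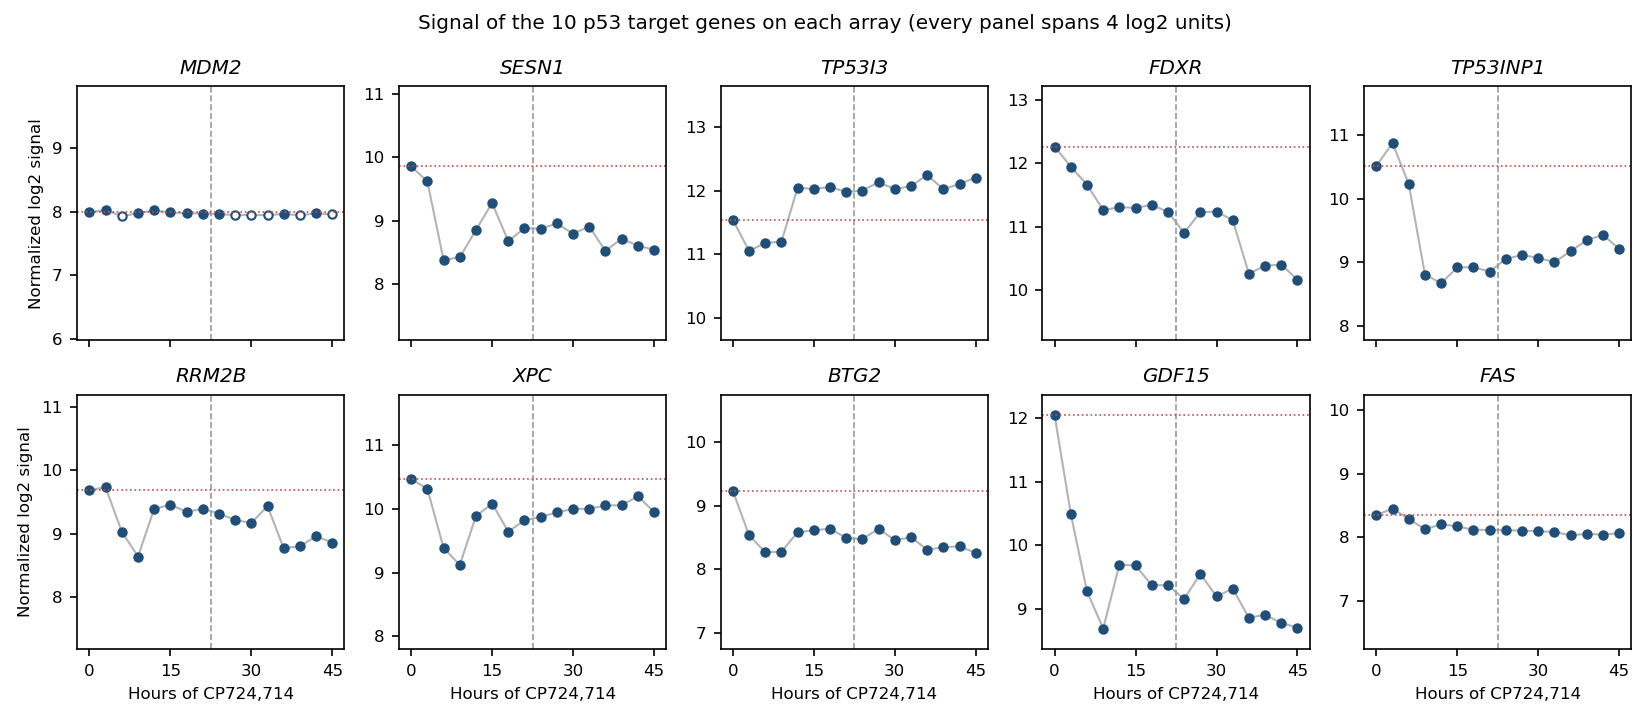
Log2 normalized signal of each of the 10 p53 target genes (y axis) against hours after CP724,714 (x axis), 1 array per time point, with open points where the probe was not detected, a dotted line at the 0 h level and a dashed line between the sets of 8 arrays. SESN1, GDF15, BTG2, FDXR and XPC have their highest value at 0 h, and TP53I3 is higher from 12 h on.

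The lower level of SESN1 was shared by 5 other members. The question started from a fall of SESN1, and the members were chosen with earlier results of these data known. SESN1 is included in the counts that follow and adds no support of its own. In the comparison of treated with untreated arrays 6 of 10 members were lower (SESN1, BTG2, GDF15, FDXR, TP53INP1 and FAS) and 0 were higher, so that 6 of 10 differed, beside 10.3% of all tested probes lower, 8.62% higher and 18.9% in either direction. At an unadjusted p under 0.05 the limma counts were 7 lower and 1 higher. The median difference over the members was −0.68 on the log2 scale, against 0.0042 over all probes. The 0 h array lay above all 15 treated arrays for 5 members (SESN1, BTG2, GDF15, FDXR and XPC), as it did for 10.9% of tested probes. The study's criterion of a 1.7-fold change, taken here against the same 0 h array, was met by 7 members at some time, all of them lower, against 9.47% of all probes lower, 10.9% higher and 19.5% in either direction. These 7 were the same genes apart from FAS, with RRM2B and XPC added.

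The lower levels were not reached at one time. At 3 h 6 of 10 lay below their 0 h level, and 1 (GDF15) was 1.7-fold lower, beside 48.0% and 2.35% of all probes. At 6 h and at 9 h all 10 lay below it, as 49.3% and 49.5% of probes did, and 4 and then 7 were 1.7-fold lower, where 3.12% and 4.19% of all probes were. From 9 to 12 h 9 of 10 members and 48.7% of all probes had a higher signal, the step at which the dim 9 h array is left. From 15 h on 9 of 10 lay below 0 h at every time, beside 48.6% to 50.6% of all probes.

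Of the genes of growth arrest, BTG2 encodes an antiproliferative protein of the BTG/TOB family. Log2 signal of BTG2 read 9.23 at 0 h, 8.54 at 3 h, 8.27 at 6 h, 8.64 at 18 h and lastly 8.26 at 45 h, with a median of 8.48. The untreated array stood alone above the 15 treated ones, and much of the difference was present at 3 h, when SESN1 was still near its untreated level. BTG2 was 0.78 lower in treated cells (SE 0.11, limma adjusted p = 0.000104), and its level at 0 h was 1.97-fold that at 45 h.

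GDF15 encodes a secreted stress cytokine of the TGF-beta superfamily, and it moved most among the members. On the log2 scale its signal read 12.04 at 0 h, 10.49 at 3 h, 9.27 at 6 h, 8.69 at 9 h, 9.70 at 12 h and lastly 8.70 at 45 h, with a median of 9.30. The level at 0 h was 10.1-fold that at 45 h. Treated minus untreated was −2.77 (SE 0.33, limma adjusted p = 1.77e-05), on 15 of 15. The linear change was −1.76 over 45 h (SE 0.46, limma adjusted p = 0.0090).

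FDXR encodes ferredoxin reductase, the mitochondrial enzyme that passes electrons from NADPH to ferredoxins for iron-sulfur cluster and steroid synthesis. The log2 signal of FDXR read 12.26 at 0 h, 11.66 at 6 h, 11.27 at 9 h, 11.11 at 33 h, 10.26 at 36 h and lastly 10.17 at 45 h, with a median of 11.24. The signal went down to 9 h, stayed between 10.91 and 11.35 to 33 h and went down again by 0.84 at 36 h. SESN1 was also lower at 36 h than at 33 h (8.52 against 8.91), as were 6 of 10 members and 49.5% of all probes. The 0 h level of FDXR was 4.27-fold that at 45 h. It had the smallest adjusted p of the members in the linear fit, with a change of −1.70 (SE 0.20, limma adjusted p = 7.51e-06), and a difference from untreated of −1.21 (SE 0.21, limma adjusted p = 0.000524). In the fit with a line for each set of 8 arrays FDXR alone among the members passed in both, with −0.94 over 21 h from 0 to 21 h (SE 0.25, limma adjusted p = 0.0101) and −1.06 from 24 to 45 h (SE 0.25, limma adjusted p = 0.0215), beside 15.6% and 2.19% of all probes lower. The early set held 4 members with a lower slope (GDF15, FDXR, TP53INP1 and FAS) and 1 with a higher one (TP53I3). Of all probes 14.6% had a higher early slope. The late set held 1 member with a lower slope and 0 with a higher one, where 2.88% of all probes had a higher slope. On the 24 to 45 h arrays alone 5 members passed, all lower (BTG2, GDF15, SESN1, FDXR and RRM2B), beside 12.8% of all probes lower. On the 0 to 21 h arrays alone 3 did, also lower (FDXR, TP53INP1 and FAS), beside 5.49%.

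FDXR was the only member whose searched window at a start site held a p53 half-site of the form searched. A link of the match to the signal of FDXR was not tested. RefSeq promoter windows (GRCh38.p14, 300 bases, from 250 before to 50 after the start) were found for 8 of the 10 members, all but TP53INP1 and RRM2B. The search was for the p53 half-site consensus on both strands. For each listed gene only its first listed window was searched, so other start sites of a gene were not covered. The shares of all promoters are over all windows. A match was present in 1 of 8 members, in 3 of 41 other p53 targets with a window (AEN, PLK2 and RPS27L) and in 6.63% of 35116 promoters. The windows of FDXR and of AEN, an apoptosis-enhancing nuclease whose values are given further on, are shown because both hold the same 10 letters (in capitals), and that of SESN1 because it holds no match. The FDXR window is chr17:74872945-74873244 on the minus strand, with the match starting at −11 from the start site. The AEN window is chr15:88621090-88621389 on the plus strand, with the match at −34. The SESN1 window is chr6:109094797-109095096 on the minus strand.
FDXR: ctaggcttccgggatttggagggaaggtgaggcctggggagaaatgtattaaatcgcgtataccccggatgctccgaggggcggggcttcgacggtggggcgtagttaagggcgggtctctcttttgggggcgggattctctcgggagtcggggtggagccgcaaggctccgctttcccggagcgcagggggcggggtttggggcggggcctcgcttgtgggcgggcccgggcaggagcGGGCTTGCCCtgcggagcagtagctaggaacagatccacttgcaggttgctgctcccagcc
AEN: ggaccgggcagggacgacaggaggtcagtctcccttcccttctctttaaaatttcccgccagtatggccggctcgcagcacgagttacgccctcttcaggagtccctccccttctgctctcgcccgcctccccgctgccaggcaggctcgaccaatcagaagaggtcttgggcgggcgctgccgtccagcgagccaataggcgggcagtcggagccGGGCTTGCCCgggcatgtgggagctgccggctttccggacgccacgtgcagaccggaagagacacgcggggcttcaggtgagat
SESN1: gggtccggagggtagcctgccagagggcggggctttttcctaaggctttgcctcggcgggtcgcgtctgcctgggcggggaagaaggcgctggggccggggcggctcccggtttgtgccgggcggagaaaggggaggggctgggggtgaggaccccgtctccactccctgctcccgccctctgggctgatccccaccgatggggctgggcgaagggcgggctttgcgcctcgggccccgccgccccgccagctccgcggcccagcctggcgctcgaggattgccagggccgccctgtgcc
The forkhead motif GTAAACA, searched on both strands, was present in the window of 1 of 8 members (GDF15, at −96), in 1 of 41 other targets (PERP) and in 3.42% of all promoters. A match describes the letters of the window and no binding was measured, and p53 sites often lie outside such windows.

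TP53INP1 and FAS were lower in treated cells by different courses. TP53INP1 encodes a nuclear protein that promotes p53 phosphorylation and autophagy. Log2 values read 10.52 at 0 h, 10.88 at 3 h, 10.23 at 6 h, 8.81 at 9 h, 8.67 at 12 h, 9.00 at 33 h and lastly 9.21 at 45 h, with a median of 9.09. The 3 h array was the highest, the drop came between 6 and 9 h, later than that of SESN1, and the last arrays lay above the 12 h array. The difference from untreated was −1.27 (SE 0.28, limma adjusted p = 0.00415), lower on 14 of 15. Its slope differed between the sets of arrays (limma adjusted p = 0.00431), with −2.12 over 21 h in the early one and 0.31 in the late one. FAS, a death receptor, was dim and ranged from 8.03 at 36 h to 8.45 at 3 h around a median of 8.11. Its early arrays were higher than its late ones, and it lay below the 0 h level on 14 of 15 treated arrays. The FAS difference from untreated was −0.21 (SE 0.05, limma adjusted p = 0.00532) and the linear change −0.32 (limma adjusted p = 0.000190). These sizes depend on the background correction, with −0.63 and −0.99 with normexp at offset 50 and −0.49 and −0.76 without correction, each still past the threshold. Slopes differed between the sets in 2 of 10 members, TP53INP1 and FAS, beside 24.8% of all probes.

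The DNA repair genes did not pass the comparison with untreated cells. RRM2B encodes the p53-inducible small subunit of ribonucleotide reductase, which supplies deoxynucleotides for repair. Log2 signal of RRM2B read 9.69 at 0 h, 9.73 at 3 h, 8.64 at 9 h, 9.39 at 12 h, 9.43 at 33 h, 8.77 at 36 h and lastly 8.86 at 45 h. The values were low at 6 to 9 h and again from 36 h, with higher ones between. The difference from untreated was −0.52 (SE 0.26, limma adjusted p = 0.177), although the spline passed (limma adjusted p = 0.0447). XPC, which recognizes damage in nucleotide excision repair, read 10.47 at 0 h, 9.12 at 9 h, 9.89 at 12 h and lastly 9.96 at 45 h, with a median of 9.98. All 15 treated arrays were below the untreated one, lowest at 6 to 9 h. The XPC difference was −0.58 (SE 0.26, limma adjusted p = 0.140), and its spline did not pass (limma adjusted p = 0.110).

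TP53I3 did not share the lower level, and MDM2 was too dim to tell. TP53I3 encodes a quinone oxidoreductase linked to oxidative stress. Log2 signal of its main probe read 11.55 at 0 h, 11.05 at 3 h, 11.20 at 9 h, 12.05 at 12 h, 12.25 at 36 h and lastly 12.21 at 45 h, with a median of 12.03. It was below the untreated level at 3 to 9 h and above it on the 12 arrays from 12 h on, and the step from 9 to 12 h was 0.85. It had the only linear rise among the members, 0.94 over 45 h (SE 0.20, limma adjusted p = 0.00207), and its difference from untreated was 0.35 (SE 0.16, limma adjusted p = 0.148). With a line for each set the early slope passed (0.96 over 21 h, limma adjusted p = 0.00538, beside 14.6% of all probes higher) and the late one did not (0.12, limma adjusted p = 0.830). On the early arrays alone that slope, 2.06 over 45 h, no longer passed (limma adjusted p = 0.0596, beside 5.79% of probes higher). A second, dimmer TP53I3 probe changed by 0.05 (limma adjusted p = 0.254). The MDM2 probe was detected on 10 of 16 arrays and stayed between 7.93 and 8.03, near background, with a difference of −0.03 (SE 0.03, limma adjusted p = 0.514). A second MDM2 probe, detected on 3 arrays, changed linearly by −0.09 (limma adjusted p = 0.0280), and the last of its probes was detected on 0 arrays. At this signal the probes give only a bound on any change of MDM2.

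**Figure D2:**
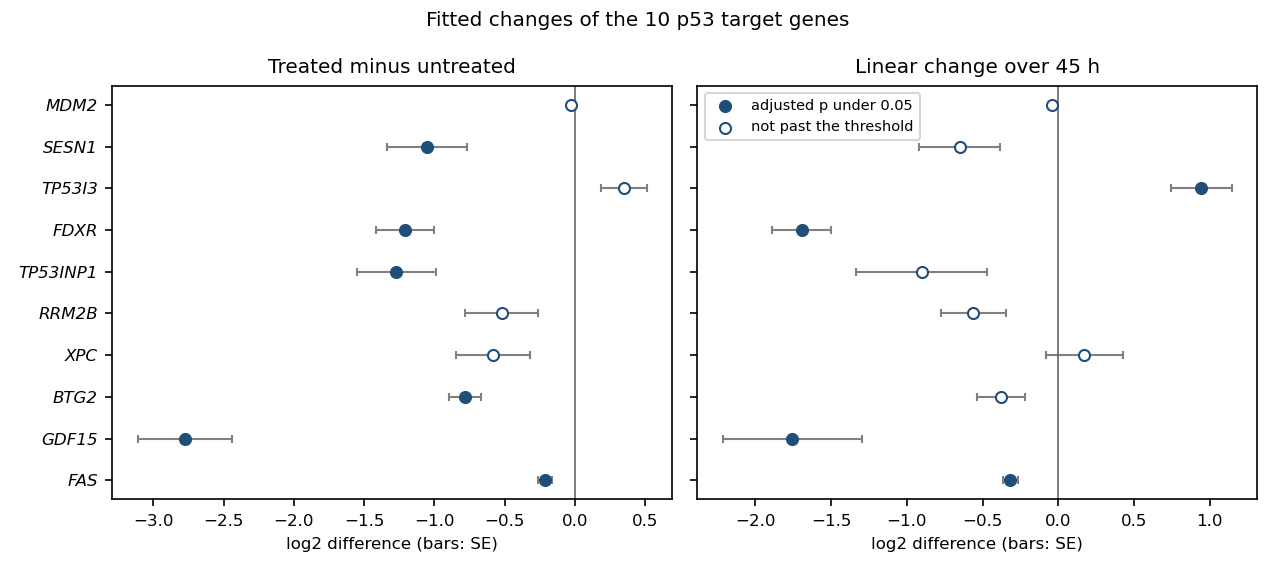
Fitted log2 differences of the 10 members with their SE, treated minus untreated in one panel and the linear change over 45 h in the other, with filled points for limma adjusted p under 0.05. The difference from untreated ranges from −2.77 for GDF15 to 0.35 for TP53I3, and 6 members pass, all below 0.

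Over the whole course 8 of 10 members were time-dependent by the spline, all but MDM2 and XPC, beside 41.9% of tested probes. In the linear fit 3 members fell (GDF15, FDXR and FAS), 1 rose (TP53I3) and 6 did not pass, beside 11.5% of probes lower and 12.9% higher. The median linear change was −0.47 over the members and −0.0022 over all probes. Of all linear calls 52.7% were higher with quantile normalization, 80.5% with median scaling over all probes and 35.6% with median scaling over the tested probes, while the members gave 3 lower and 1 higher, 3 and 1, and 5 and 1. With sets of 4 consecutive time points as a block 0 members passed in limma, and 5 did at an unadjusted p under 0.05.

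The wider p53 pathway was read from 47 other targets, of which 41 were tested. Treated cells were lower for 23 of them and higher for 0 (25 and 0 at an unadjusted p under 0.05 in limma), with a median difference of −0.32, beside 10.3% of all probes lower and 8.62% higher. In the linear fit 17 fell, 1 rose (CES2) and 23 did not pass, with a median of −0.24, beside 11.5% of all probes lower and 12.9% higher. Among 7 growth arrest genes 5 were lower than untreated, among 14 apoptosis genes 10, among 3 DNA repair genes 1, among 7 genes of metabolism, redox and autophagy 3, among 4 p53 feedback genes 1, and among 6 others 3.

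CDKN1A, the CDK inhibitor p21 through which p53 halts the cell cycle, read 13.97 on the log2 scale at 0 h, 12.51 at 9 h and lastly 11.99 at 45 h, a 3.95-fold difference between 0 h and 45 h. It was lower on 15 of 15 arrays (treated minus untreated −1.31, SE 0.27, limma adjusted p = 0.00217), although the deposited detection p was not under 0.05 at 42 and 45 h at intensities of 4477 and 4969. Such values were not limited to CDKN1A. Of 59324 values over an intensity of 1000, 637 had a detection p of 0.05 or more, in 91 probes. Their source is not known, and the detection p-values also enter the probe filter and the background correction. SFN (14-3-3 sigma, a G2 arrest protein) differed by −1.21 (limma adjusted p = 4.98e-05). AEN had its highest value, 13.03, at 3 h and its lowest, 9.87, at 39 h, and its 0 h level was 5.70-fold that at 45 h (treated minus untreated −1.80, limma adjusted p = 0.00224). BAX, which permeabilizes mitochondria in apoptosis, differed by −0.90 (limma adjusted p = 0.00213), BBC3 (PUMA) by −0.47 (limma adjusted p = 0.0456) and PMAIP1 (NOXA) by −0.27 (limma adjusted p = 0.0182). DDB2, a damage sensor of nucleotide excision repair, differed by −1.19 (limma adjusted p = 4.98e-05), where XPC of the same pathway did not pass. CES2, a carboxylesterase, rose linearly by 0.92 (limma adjusted p = 0.0117), with a difference from untreated of 0.32 (limma adjusted p = 0.481).

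**Figure D3:**
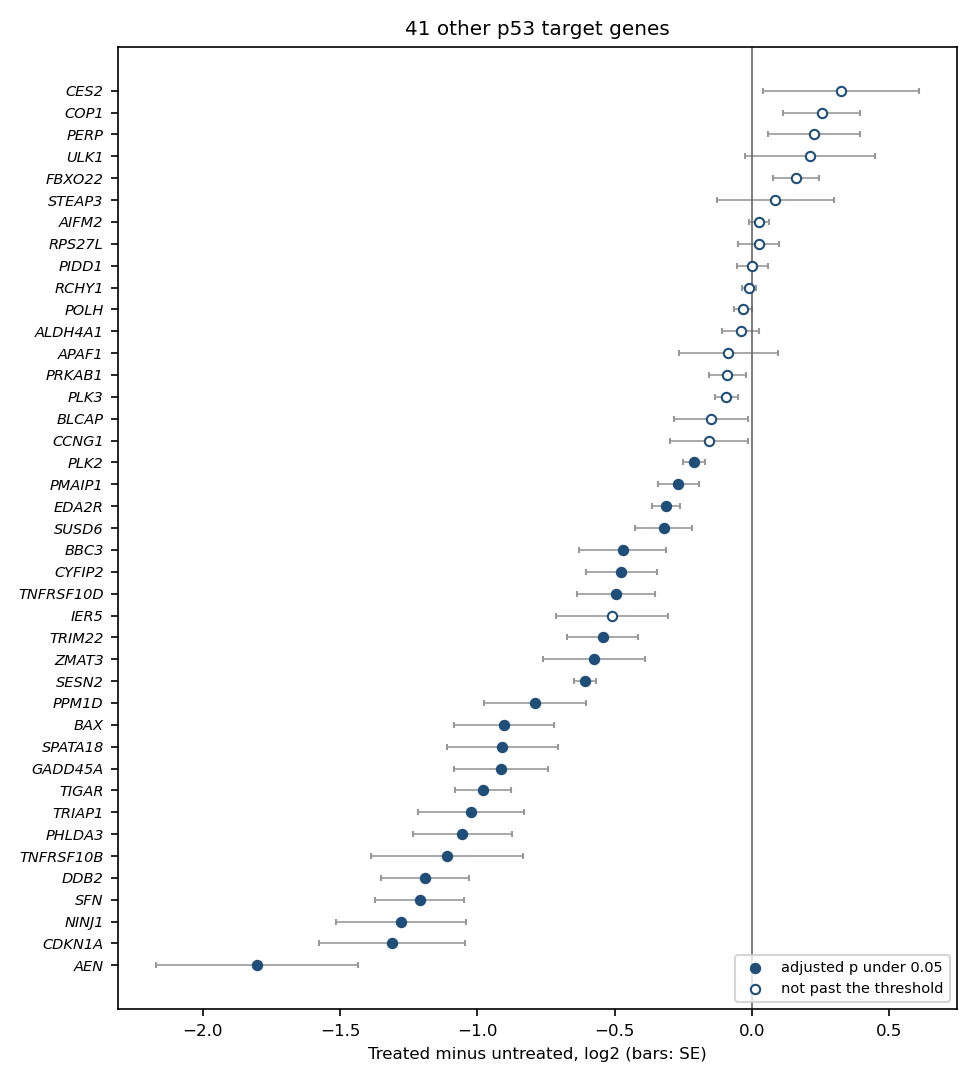
Treated minus untreated log2 difference (x axis, bars SE) of the 41 tested other p53 targets, ordered by size, with filled points for limma adjusted p under 0.05. The 23 filled points all lie below 0, with AEN lowest at −1.80.

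The sestrin family and the upstream genes read less uniformly, and several of their probes were near background. SESN2 read 8.57 at 0 h and 7.90 to 8.08 on the treated arrays, 7 of 15 of which detected it. Treated minus untreated was −0.61 (limma adjusted p = 2.38e-08), a bound on its size, since signal near background is compressed and its spread with it. Its linear change was −0.26, and −0.98 with normexp at offset 50. SESN3, on 11 arrays, differed by 0.00078 from untreated (limma adjusted p = 0.988). Its probe stayed between 7.93 and 8.01, near background, and gives only a bound on any change. TP63, a transcription factor of basal epithelium, differed by −0.14 (limma adjusted p = 0.0838). Of 13 p53 family members and regulators 10 were tested. Among these HIPK2, a kinase that phosphorylates p53, was higher by 0.87 (SE 0.21, limma adjusted p = 0.00716), and only ATR passed the linear fit, at −0.04 (limma adjusted p = 0.0148, detected on 11 arrays). The ATR probe stayed between 7.92 and 7.97 and that of TP63 between 7.88 and 8.17, so both have only a bound too. MDM4 was detected on 1 array and TP73 on 0, and neither was tested.

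The genes most like SESN1 were ranked by the root mean square difference of centred log2 signals over the 16 arrays, among 11564 genes. The nearest were TSEN15 (C1orf19 in the table, a tRNA splicing endonuclease subunit) at 0.152, PPM1D (a phosphatase that switches p53 off) at 0.157, TNFRSF10B (a TRAIL death receptor) at 0.164, PSPH (the last enzyme of serine synthesis) at 0.175 and GRPEL2 (a mitochondrial co-chaperone) at 0.178. PPM1D and TNFRSF10B are among the 47 other targets. The 0 h level of TNFRSF10B was 2.61-fold that at 45 h, and that of PPM1D 1.86-fold. Of the members, RRM2B was nearest, at rank 14 (0.216), followed by BTG2 at 45 (0.243), XPC at 181 (0.284) and FAS at 579 (0.330). FDXR ranked 7415, GDF15 8930, TP53INP1 9952 and TP53I3 10743. Signals were centred but not scaled, so the ranks weigh the size of a change as well as its course. The untreated array was highest for GDF15 and FDXR as for SESN1. Their log2 ranges were 3.35 and 2.09, against 1.47 for SESN1. The ranks are thus no measure of shared course alone. Dim probes rank by their small range, so the rank of MDM2 is not given. This bears on the rank of FAS too (range 0.42).

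**Figure D4:**
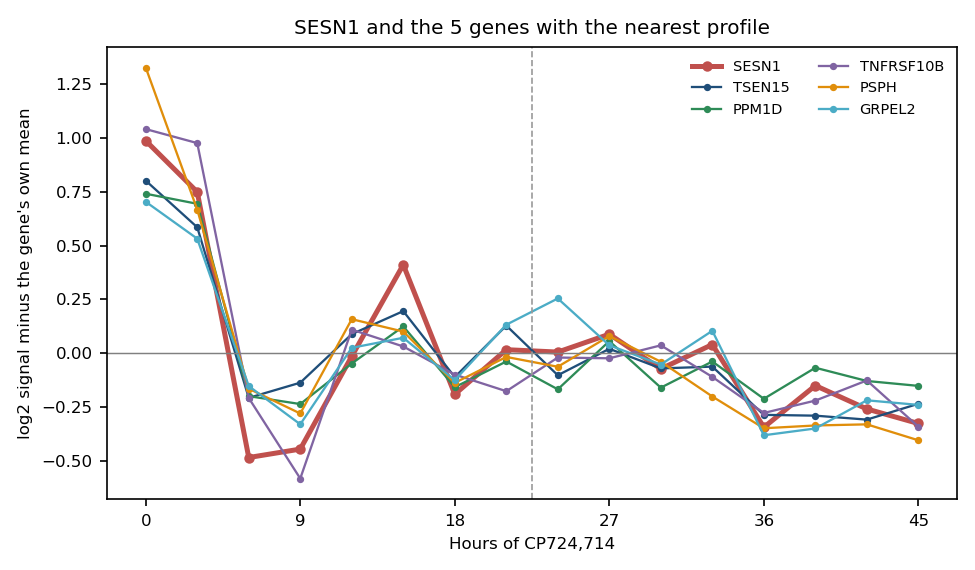
Centred log2 signal (y axis) against hours after CP724,714 (x axis) for SESN1 and the 5 genes with the smallest root mean square difference from it over 16 arrays, with a dashed line between the sets of 8 arrays. All 6 curves have their highest value at 0 h and drop by 6 to 9 h.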

How the data were processed

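Illumina human Ref-8 v2 beadchips carried the RNA of 16 MCF10HER2 cultures. The authors deposited non-normalized probe intensities, with a detection p-value for each from the negative controls of its array. Background was removed here by neqc (limma 3.58.1 under R 4.3.3, controls inferred from the detection p-values, offset 16), followed by quantile normalization and log2, which understates fold changes of dim probes. A probe was tested if at least 3 arrays had its detection p below 0.05, which left out 40.2%. The limma fits (lmFit, eBayes with trend) were a straight line in time, a spline with 4 degrees of freedom, treated against untreated with a spline of 3 degrees of freedom among treated arrays, and separate lines for 0 to 21 h and 24 to 45 h. P-values were adjusted over all 12321 probes (Benjamini-Hochberg, 0.05). Scripts were tested on simulated data. Cultures were parallel and single, so p-values measure the scatter of arrays about the fitted curves.

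Of several probes of a gene, the detected one with the highest mean signal was used. Named genes were the members, CDKN1A, BAX, BBC3, PMAIP1 and DDB2, the 3 largest linear rises and falls that passed among other targets, TP63, MDM4 and any regulator past the linear fit, SESN2, SESN3 and the 5 genes nearest to SESN1. HIPK2, TP73, PERP, PLK2 and RPS27L were named after their values were seen. Some genes of the lists are not reported here. The members and lists were chosen with earlier results of these data known. Older array symbols were matched through RefSeq (GRCh38.p14), which also gave the promoters. The study's text gives no baseline for its 1.7-fold threshold, and 0 h was used. The alternatives tried covered background correction, scaling, the filter, spline freedom, probe choice, array weights, blocks, subsets of arrays and leaving out each array, and median scaling over the tested probes was chosen after seeing the data.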

Additional observations from a re-analysis of the deposited data

Results flagged for a closer look

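The slope of log2 signal differed between the arrays from 0 to 21 h and those from 24 to 45 h for 2 of 10 members and 12 of 41 other targets, beside 24.8% of all probes. For 5 of these genes that are named in the text the difference is given as the later slope minus the earlier one over 21 h with the limma adjusted p of that difference. TP53INP1 differed by 2.43 (limma adjusted p = 0.00431), with −2.12 early and 0.31 late. FAS differed by 0.23 (limma adjusted p = 0.0417), with −0.30 early and −0.07 late. SFN differed by 1.37 (limma adjusted p = 0.00203), with −1.67 early and −0.30 late. BAX differed by 1.38 (limma adjusted p = 0.0189), with −1.73 early and −0.35 late. BBC3 differed by 0.98 (limma adjusted p = 0.00821), with −0.68 early and 0.31 late. The 2 sets of arrays also differ in background signal, and its part in these differences was not tested.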

How the results depend on the processing

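The comparison with the untreated array kept its direction: over 25 alternatives 6 to 8 members were lower and 0 higher, SESN1 differed by −1.13 to −0.95 (limma adjusted p from 9.84e-05 to 0.0386), and 17 to 24 other targets were lower. It cannot be run without the 0 h array. Counts in the other fits moved more, and the cause was not tested. For the blocks, the array weights and the arrays left out, the share of all probes was not counted. Those counts thus cannot be read as particular to the listed genes. Time-dependent members (8) were 5 with median scaling over all probes, with 3 degrees of freedom and with the array set as a block, and 5 (without 0 h) to 9 leaving out 1 array. Members with a linear trend (4) were 8 with array weights (7 lower), 2 with the array set as a block (0 higher), 0 with sets of 4 as a block (0 lower, 0 higher) and 7 without the 9 h and 18 h arrays (6 lower). They were 4 to 8 leaving out 1 array, of which 3 to 7 were lower, with 7 lower without 6 h and 6 without 9 h. Lower members (3) were 5 with median scaling over the tested probes and 5 within 24 to 45 h. The higher member was lost (0) within 0 to 21 h and within 24 to 45 h. Other targets that fell (17) were 9 and 0 with the 2 blocks (13 either way at an unadjusted p under 0.05 with sets of 4), 11 within 24 to 45 h, and 11 (without 3 h) to 21 leaving out 1 array. Other targets that rose (1) were 2 with median scaling over all probes, 3 with array weights, 0 with either block, 0 within 0 to 21 h and 3 within 24 to 45 h. Members whose slope differed between sets (2) were 1 with normexp at offset 50, no background correction, either median scaling or no filter, and 1 to 4 leaving out 1 array, with 4 without 0 h.

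The linear change of SESN1 (−0.65) passed with array weights (−0.60, limma adjusted p = 0.00924), within 24 to 45 h (−0.84, limma adjusted p = 0.0155) and without 9 h and 18 h (−0.83, limma adjusted p = 0.0234), and was −0.86 (without 6 h) to −0.37 leaving out 1 array. With the median of the 16 arrays as baseline 3 members were 1.7-fold lower and 4 higher at some time. Linear changes that turned sign were BBC3 (0.25 and 0.090 with median scaling over all and over tested probes, 0.35 with array weights, 0.66 within 24 to 45 h, −0.26 to 0.0025 leaving out 1 array), TP53INP1 (0.41 with array weights, 0.66 within 24 to 45 h), XPC (−0.27 and −2.01 with the blocks, −0.91 within 0 to 21 h, −0.027 without 9 h and 18 h), MDM2 (0.018 within 24 to 45 h), and, with sets of 4 as a block, TP53I3 (−0.37) and CES2 (−1.03). No paired analysis was possible because time points have a lone array each. Probes near background, such as those of MDM2, have only a bound on their change.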
